A study of Sus scrofa with 4 samples.

Results

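The miR-181 family of the pig was followed through 4 small RNA libraries of the piglet hippocampus. Its members are the rows of the table of annotated pig miRNAs whose names, without the species prefix, begin with miR-181a, miR-181b, miR-181c or miR-181d, on either arm of the hairpin. This gave 5 of 326 rows: miR-181a, miR-181b, miR-181c, miR-181d-5p and miR-181d-3p. The first 3 names carry no arm, and their sequences are those of the 5p arm. They are processed from 6 annotated precursors, of which miR-181a and miR-181b have a pair each. In a second table, of conserved miRNA sequences from many species, 53 of 2791 rows carry the family name mir-181, and these served as a check and as the source of sequences.

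The libraries came from newborn Rongchang piglets, a Chinese breed, all littermates and all given the genotype "wide type". Iron piglets were given intramuscular iron dextran, a complex of iron with a polysaccharide, at 200 mg on postnatal days 3 and 4 to provoke oxidative stress. Control piglets are labelled as injected with nothing. Each group had 4 piglets. Dorsal and ventral hippocampus were taken separately and the tissue was mixed within a group before RNA was extracted, which gives 1 pooled library each for iron dorsal, iron ventral, control dorsal and control ventral. The protocol does not say how many piglets entered a pool, and variation among animals cannot be seen in such libraries. The annotated miRNA reads numbered 11396809 in iron dorsal, 12299691 in iron ventral, 12100980 in control dorsal and 13839556 in control ventral.

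MicroRNAs guide Argonaute proteins to messenger RNAs, mainly by pairing of the seed near their 5′ end, and lower the output of those messengers. The miR-181 family is best known from lymphocytes, where in the mouse miR-181a tunes the sensitivity of the T cell receptor in thymocytes. It is also abundant in mammalian brain: in rat neurons miR-181a is known to act on an AMPA receptor subunit, and in mouse models of brain ischaemia the family is known to act on survival proteins of the Bcl family. In the rat heart miR-181c has been found in mitochondria.

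The 4 mature 5p forms carry the same seed, bases 2 to 8, shown in capitals, which is why they are treated as 1 family. The deposited conserved table lists each of these sequences for the pig.
miR-181a: aACAUUCAacgcugucggugaguu
miR-181b: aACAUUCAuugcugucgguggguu
miR-181c: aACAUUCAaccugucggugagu
miR-181d-5p: aACAUUCAuuguugucgguggguu
Counted from the 5′ end, miR-181b differs from miR-181a by A9U, C10U and A21G, and miR-181d-5p differs from miR-181b by C12U alone. miR-181c lacks the G at position 11 of miR-181a and otherwise reads on with it. The seed ACAUUCA is held by 22 rows of the family in the conserved table and by 0 rows of any other family. Since so few bases separate the members, the authors' counting could have divided reads between them, by a rule that the sources used here do not state, and the split between single members is uncertain to that extent.

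The opposite arms differ between the precursors of miR-181a in other species, whereas the 5p form is shared. They are shown because the results on arms below rest on them, again with bases 2 to 8 in capitals.
miR-181a-1-3p: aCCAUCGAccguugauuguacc
miR-181a-2-3p: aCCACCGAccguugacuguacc
miR-181c-3p: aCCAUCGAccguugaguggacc
The pig is not among the species listed for these rows, which include the human for the miR-181a-1-3p row and the mouse for the miR-181c-3p row. The row of miR-181a-2-3p is named for a bat, as miR-181f. It was taken as miR-181a-2-3p after the rows were seen, because it differs from the human form of that arm by U6C alone. The miR-181a-2-3p row differs from the miR-181a-1-3p row by U5C, within bases 2 to 8, and by U16C, whereas miR-181c-3p differs from that row by U16G and U19G, outside them. None of these rows was checked against the pig hairpins, so their precursors are assigned by likeness to other species only. In the RefSeq annotation of the assembly Sscrofa11.1, MIR181A-1 lies beside MIR181B-1 within the bounds of LOC110255652, MIR181A-2 beside MIR181B-2 within the bounds of NR6A1, a nuclear receptor gene, and MIR181C beside MIR181D with no gene around them. The submitters' processing notes name another build, so no coordinates are given.

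Levels are CPM, reads per 1000000 annotated reads after TMM scaling, which sets the libraries to a common size. As a whole the family stood at 32283 CPM in iron dorsal, 39709 in iron ventral, 33154 in control dorsal and 27593 in control ventral. It was highest in iron ventral and lowest in control ventral, with both dorsal libraries close to each other in between. This was 3.02% of annotated reads in iron dorsal (exact binomial 95% interval 3.01% to 3.03%), 3.98% in iron ventral (3.97% to 3.99%), 3.38% in control dorsal (3.37% to 3.39%) and 2.89% in control ventral (2.88% to 2.90%). All intervals here cover counting error only, since amplified reads are not independent molecules and no combination had a second library. Nor can fewer cells of a type and less of a miRNA per cell be told apart in bulk tissue.

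miR-181a made up most of the family and was between the seventh and the tenth most abundant annotated miRNA in each library. It stood at 26509 CPM in iron dorsal, 32169 in iron ventral, 26410.0 in control dorsal and 21852 in control ventral. Its share of the family's 5p reads was 82.1% in iron dorsal, 81.01% in iron ventral, 79.7% in control dorsal and 79.2% in control ventral. By CPM the ventral libraries were its extremes. By share of the family, iron dorsal was highest and control ventral lowest.

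miR-181b, the partner of miR-181a in both of its clusters, stood at 2991 CPM in iron dorsal, 4368 in iron ventral, 3377 in control dorsal and 3090.5 in control ventral. It was again highest in iron ventral, but lowest in iron dorsal. miR-181d-5p stood at 1839 CPM in iron dorsal, 1980 in iron ventral, 1919 in control dorsal and 1441 in control ventral, so control ventral lay below 3 similar values. Its cluster partner miR-181c stood at 943 CPM in iron dorsal, 1192 in iron ventral, 1447 in control dorsal and 1210.1 in control ventral. miR-181c was lowest in iron dorsal and highest in control dorsal, with the ventral libraries alike, an order no other member had.

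The passenger miR-181d-3p had 4 reads in iron dorsal, 3 in iron ventral, 9 in control dorsal and 2 in control ventral. It is the 1 member under the minimum of 10 CPM in at least 1 library that defined a measured miRNA, which 251 of 321 annotated miRNAs reached after duplicate rows were merged. The limit that a count of 0 allows, 3 reads, equals 0.282 CPM in iron dorsal and 0.207 CPM in control ventral. The level of miR-181d-3p was near, at or below that limit in iron dorsal, iron ventral and control ventral. In control dorsal it was 0.729 CPM against a limit of 0.243 CPM. The other 4 members were measured.

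**Figure D1:**
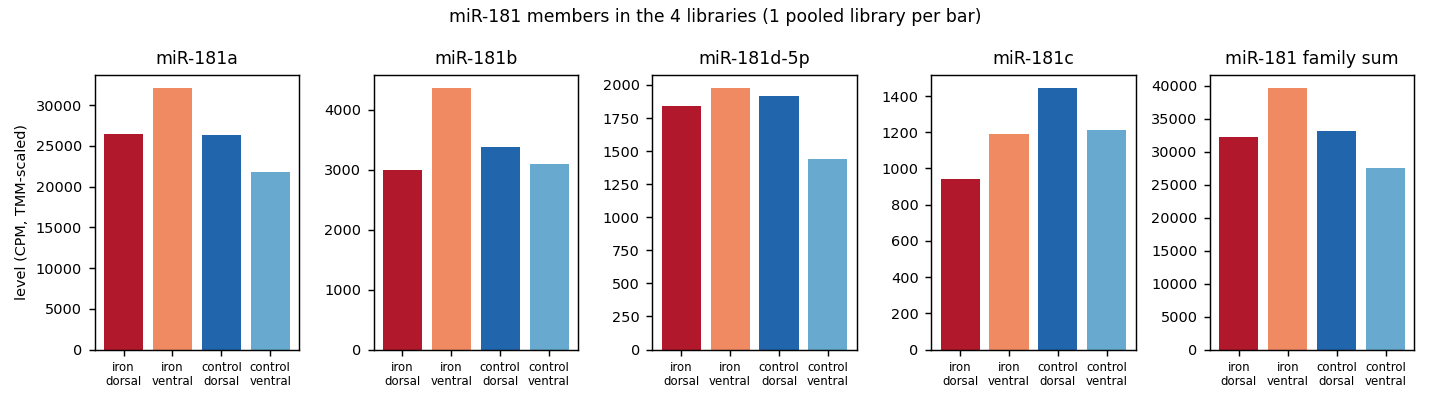
Level of each measured miR-181 member and of the family sum (y axis, CPM after TMM scaling; each panel has its own scale) in iron dorsal, iron ventral, control dorsal and control ventral, 1 pooled library per bar and therefore no error bar. miR-181a, miR-181b and miR-181d-5p are highest in iron ventral, whereas miR-181c runs from 943 CPM in iron dorsal to 1447 CPM in control dorsal.

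The first comparison is of iron with control piglets within the ventral hippocampus. miR-181a, miR-181b and miR-181d-5p were higher in iron ventral by similar factors, and miR-181c was not. The ratio of iron ventral to control ventral was 1.47 for miR-181a (95% counting interval 1.47 to 1.48), 1.41 for miR-181b (1.40 to 1.43) and 1.37 for miR-181d-5p (1.35 to 1.40). For miR-181c it was 0.985 (0.964 to 1.01), an interval that includes 1. Of the 251 measured miRNAs, 4 had a larger ratio than miR-181a, 7 than miR-181b and 10 than miR-181d-5p. The median log2 ratio of the 4 members was 0.48, against 0.00 over all measured miRNAs. The counting interval alone excluded 1 for 77.3% of all measured miRNAs, so a miRNA was counted as different only if it also reached 2-fold. By that rule 0 of 4 members were counted, where 1.99% of all measured miRNAs were. At 1.5-fold, a threshold chosen after the values were seen, it was again 0 of 4 against 5.58%. With the longer and shorter 5p rows of the conserved table summed per member, the ratios were 1.43 for miR-181a (1.42 to 1.43), 1.37 for miR-181b (1.35 to 1.39), 1.34 for miR-181d-5p (1.31 to 1.36) and 0.952 for miR-181c (0.931 to 0.974).

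The regional comparison in control piglets shares the control ventral library, the lowest for miR-181a and miR-181d-5p, with the comparison above. There, dorsal against ventral gave ratios of 1.33 for miR-181d-5p (1.31 to 1.36), 1.21 for miR-181a (1.203 to 1.215), 1.195 for miR-181c (1.17 to 1.22) and 1.09 for miR-181b (1.08 to 1.11). All 4 measured members were higher in the dorsal library, with 0 of 4 at 2-fold (1.99% of all measured miRNAs) and 0 of 4 at 1.5-fold (6.77%); the interval alone excluded 1 for 75.3%. Their median log2 ratio was 0.27, against -0.00 over all measured miRNAs.

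The dorsal libraries of iron and control piglets gave another picture. miR-181c was 1.53-fold lower in iron dorsal (1.496 to 1.57), and 12 of the 251 measured miRNAs had a smaller ratio. miR-181b was 1.13-fold lower (1.11 to 1.15) and miR-181d-5p 1.04-fold lower (1.02 to 1.06). The ratio of miR-181a was 1.004 (0.999 to 1.01), with an interval that includes 1, though its log2 ratio was -0.12 with total reads and -0.10 with the authors' RPM. Summed 5p rows of the conserved table gave 0.674 for miR-181c (0.657 to 0.691), 0.932 for miR-181b (0.918 to 0.946), 0.956 for miR-181d-5p (0.937 to 0.976) and 1.05 for miR-181a (1.05 to 1.06). At 2-fold 0 of 4 members were counted, where 0.797% of all measured miRNAs were and the interval alone excluded 1 for 77.7%. At 1.5-fold 1 of 4, miR-181c, was counted, where 9.56% were in either direction and 5.98% were lower. In the conserved table miR-181c was 1.48-fold lower (1.45 to 1.52), short of 1.5-fold. The median log2 ratio of the members was -0.12, against -0.02 over all measured miRNAs.

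In iron piglets the 4 measured members were lower in the dorsal than in the ventral library. miR-181b was 1.46-fold lower (1.44 to 1.48), miR-181c 1.26-fold lower (1.23 to 1.30), miR-181a 1.21-fold lower (1.21 to 1.22) and miR-181d-5p 1.08-fold lower (1.06 to 1.10). Again 0 of 4 reached 2-fold (0.797% of all measured miRNAs) and 0 of 4 reached 1.5-fold (8.37%), with an interval excluding 1 for 77.7%. The median log2 ratio was -0.31, against 0.01 over all measured miRNAs.

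**Figure D2:**
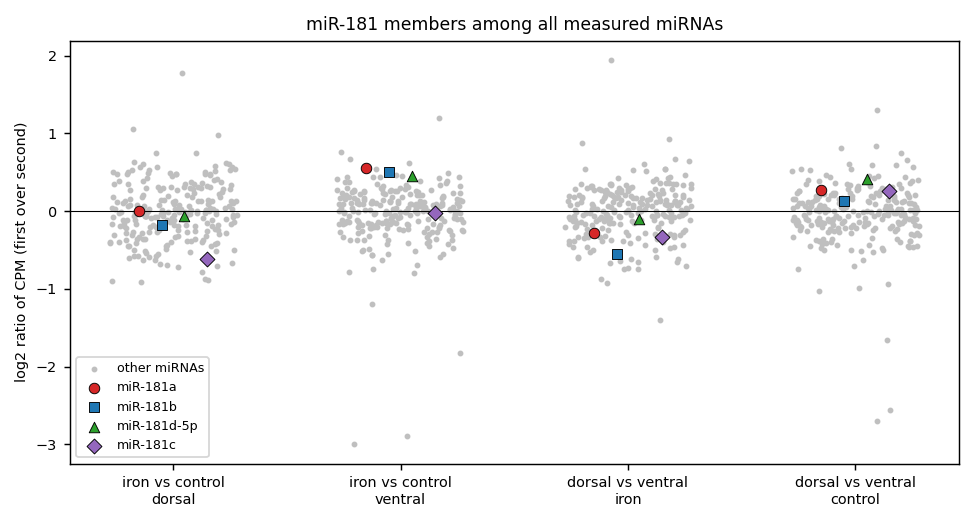
Log2 ratio of CPM, first-named over second-named library, for the 4 measured miR-181 members (coloured symbols) and all other measured miRNAs (grey points, spread sideways at random) in the 4 comparisons. In the ventral iron comparison miR-181a, miR-181b and miR-181d-5p lie near the top of the cloud at 0.56, 0.50 and 0.46, and in the dorsal one miR-181c lies near the bottom at -0.62.

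With the regions combined, the quasi-likelihood test in edgeR, with region and treatment as terms, called 0 of 251 miRNAs (0%) for treatment after adjustment at 0.05. An unadjusted p under 0.05 was found for 11 of them. The DESeq2 Wald test called 1, which is no member of the family, and limma-trend called 0. The log2 difference of iron minus control was 0.28 for miR-181a, 0.16 for miR-181b, 0.20 for miR-181d-5p and -0.32 for miR-181c, with adjusted p-values of 0.929 to 0.953 in edgeR. In the annotated table, for none of the 4 did both regions show an interval excluding 1 in the same direction. In the conserved table miR-181a was above 1 in both regions and miR-181c below 1 in both, with intervals excluding 1, as given above. The region difference, dorsal minus ventral with treatment as a term, also gave 0 calls (0%) in edgeR, with 8 at an unadjusted p under 0.05, and 0 calls in limma-trend and DESeq2. It was -0.21 for miR-181b, 0.15 for miR-181d-5p, -0.04 for miR-181c and -0.0029 for miR-181a, whose sign turned with DESeq2 size factors, and edgeR's adjusted p was 0.996 for all 4. The model leaves 1 residual degree of freedom and both regions come from the same pools, so these p-values speak of the libraries only.

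Ratios between members within 1 library do not depend on how libraries are scaled. One such difference was between the partners of 1 cluster. miR-181d-5p exceeded miR-181c by 1.95-fold in iron dorsal (1.90 to 1.997) and 1.66-fold in iron ventral (1.63 to 1.69), against 1.33-fold in control dorsal (1.30 to 1.35) and 1.19-fold in control ventral (1.17 to 1.21). Both iron libraries lay above both control libraries, and within each treatment dorsal lay above ventral. miR-181c accordingly made up 2.92% of the family's 5p reads in iron dorsal and 3.003% in iron ventral, against 4.36% in control dorsal and 4.39% in control ventral. The ratio of miR-181a to miR-181b was higher in dorsal than in ventral, and within each region it was also higher in iron. It was 8.86 in iron dorsal (8.76 to 8.97) and 7.36 in iron ventral (7.30 to 7.43), and 7.82 in control dorsal (7.74 to 7.90) and 7.07 in control ventral (7.001 to 7.14), so that each dorsal library lay above both ventral ones.

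The arms of miR-181c differed in opposite directions. In the conserved table, scaled by TMM on its own family sums, miR-181c-3p stood at 532 CPM in iron dorsal, 394 in iron ventral, 355 in control dorsal and 293 in control ventral. Iron dorsal was thus the highest library for the 3p arm, and it was the lowest for the 5p arm, at 885 CPM against 1314 CPM in control dorsal. miR-181c-3p was higher in iron than in control in both regions, by 1.501-fold in dorsal (1.44 to 1.56) and 1.35-fold in ventral (1.29 to 1.40). The ratio of 5p to 3p reads was 1.66 in iron dorsal (1.61 to 1.72) and 2.79 in iron ventral (2.70 to 2.88), against 3.70 in control dorsal (3.58 to 3.83) and 3.94 in control ventral (3.81 to 4.08). Both iron libraries lay below both control libraries.

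Between iron dorsal and control dorsal the 5p to 3p ratio of miR-181c thus differed by -1.16 on the log2 scale, and between iron ventral and control ventral by -0.50. For comparison, 44 pairs of 5p and 3p rows in the annotated table differed by -0.78 to 0.77 in dorsal, with a median of -0.12, and by -0.64 to 0.79 in ventral, with a median of -0.00. With its 21-base 5p row alone, over the 3p row shown above, the dorsal difference of miR-181c was -0.61, within the dorsal range of these pairs. With the 22-base 5p row it was -1.05 and with the longest 5p row -1.44, both outside that range. A change of at least 1.5-fold in either direction was found for 13.6% of these pairs in dorsal and 4.55% in ventral. These pairs were counted in another table than miR-181c, so they are a description and no test. The same ratio for miR-181a, over its summed 3p rows, was 46.8 in iron dorsal (45.6 to 48.0) and 52.8 in iron ventral (51.6 to 54.1). In controls this ratio was 45.7 in dorsal (44.6 to 46.8) and 46.1 in ventral (44.9 to 47.2). It was thus not lower in iron in either region, and in ventral it was higher. For miR-181b it was 136 in iron dorsal (119 to 156), 187 in iron ventral (166 to 211.03), 167 in control dorsal (147 to 191) and 154 in control ventral (137.04 to 174), with wide intervals because its 3p arm had few reads.

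The 3p rows assigned to the precursors of miR-181a also differed. miR-181a-1-3p, taken as the arm from the cluster with MIR181B-1, stood at 289 CPM in iron dorsal, 259 in iron ventral, 228 in control dorsal and 180 in control ventral. miR-181a-2-3p, taken as the arm from the cluster with MIR181B-2, stood at 254 CPM in iron dorsal, 311 in iron ventral, 299 in control dorsal and 279 in control ventral. The first was higher in iron in both regions, by 1.27-fold in dorsal (1.205 to 1.33) and 1.44-fold in ventral (1.37 to 1.52). The second had a ratio of 0.849 in dorsal (0.807 to 0.892) and 1.11 in ventral (1.07 to 1.16). The ratio of the first to the second was 1.14 in iron dorsal (1.08 to 1.198) and 0.835 in iron ventral (0.796 to 0.875), against 0.761 in control dorsal (0.725 to 0.799) and 0.644 in control ventral (0.612 to 0.677). The size of this ratio depends on which rows are summed: with a single row of 22 bases for each it was 0.538, 0.396, 0.356 and 0.305 in the same 4 libraries, in the same order.

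**Figure D3:**
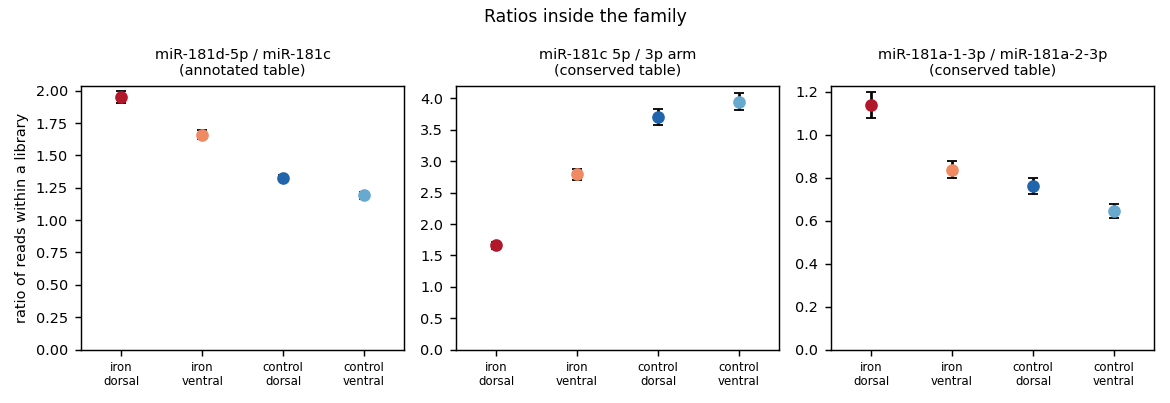
Ratios of reads within each library, with y axes starting at 0. The left panel is miR-181d-5p over miR-181c in the annotated table. The middle panel is the 5p over the 3p arm of miR-181c in the conserved table. The right panel is miR-181a-1-3p over miR-181a-2-3p in the conserved table. Bars are 95% counting intervals, computed in the conserved table as if rows shared no reads. Iron dorsal and iron ventral lie above both controls in the left and right panels and below them in the middle one, where the ratio is 1.66 in iron dorsal and 3.94 in control ventral.

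The conserved table also holds the 5p arms at several lengths, as rows that share a start and differ at the 3′ end. For miR-181a the 24-base row over the 22-base row was 1.94 in iron dorsal, 2.57 in iron ventral, 3.44 in control dorsal and 2.28 in control ventral. For miR-181b the same ratio was 1.22 in iron dorsal, 1.55 in iron ventral, 1.74 in control dorsal and 1.49 in control ventral. For miR-181d-5p, with 24 over 23 bases, it was 2.12 in iron dorsal, 2.54 in iron ventral, 2.79 in control dorsal and 2.50 in control ventral. For miR-181c, with 23 over 21 bases, it was 1.09 in iron dorsal, 1.53 in iron ventral, 1.75 in control dorsal and 1.42 in control ventral. All 4 members gave the same order of libraries, with the shortest ends in iron dorsal and the longest in control dorsal. A read of a short form can be counted in several of these rows, so the ratios are not shares of molecules.

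**Figure D4:**
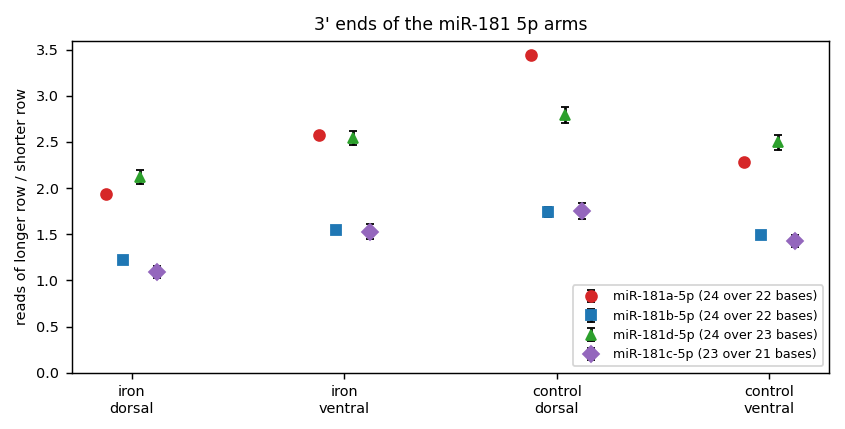
Reads of a longer row over a shorter row of the same 5p arm in the 4 libraries, for the 4 measured members. The y axis starts at 0. Bars are 95% counting intervals, smaller than some symbols, computed as if rows shared no reads. Every member is lowest in iron dorsal, where miR-181a is at 1.94, and highest in control dorsal, where it is at 3.44.

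This order was not limited to miR-181. Among row pairs 1 base apart with at least 100 reads in every library, 12 of 12 of the miR-181 family had a lower long-to-short ratio in iron dorsal than in control dorsal, with a median log2 change of -0.30, and so did 278 of 405 pairs of 117 other families (68.6%), with a median of -0.09. Pairs of the same arm share reads, so they are not independent of each other. In ventral hippocampus the median change of iron against control was 0.02 for the family and 0.01 for the others. The arm ratio of miR-181c depended on the row length counted, most in dorsal hippocampus. With the 21-base row alone as its 5p arm, over the 22-base 3p row, the ratio was 0.479 in iron dorsal against 0.733 in control dorsal, 1.53-fold lower in iron in place of 2.23-fold. With the longest row it was 2.71-fold lower. In ventral hippocampus the same choices gave 1.53-fold and 1.42-fold lower, beside 1.41-fold with all rows. The long-to-short ratio of miR-181c there was 1.53 in iron and 1.42 in control. The part of read length in the arm ratio was not tested. Whether the other differences between members move with read length was not tested.

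Markers of cell types, as miRNA lists, give the setting of these values. The neuronal miR-124a, among the defining miRNAs of neurons, stood at 33451 CPM in iron dorsal, 41655 in iron ventral, 40449 in control dorsal and 40373 in control ventral, the level of an abundant miRNA in each. In the dorsal comparison, where miR-181c was lower, 0 of 8 measured neuronal miRNAs had a ratio above 1, and their summed level was 57969 CPM in iron dorsal against 71637 CPM in control dorsal. In ventral hippocampus 4 of 8 were above 1, with 68811 CPM in iron ventral against 64519 CPM in control ventral. Over all measured miRNAs the median log2 ratio of iron to control was -0.02 in dorsal and 0.00 in ventral. The lymphocyte and myeloid miRNAs, of interest because miR-181a is known from lymphocytes, summed to 889 CPM in iron dorsal, 951 in iron ventral, 1010 in control dorsal and 1109 in control ventral. Beside miR-181a ratios of 1.004 in dorsal and 1.47 in ventral, 5 of these 5 miRNAs were below 1 in dorsal and 4 of 5 in ventral. Their part in the results of the family was not tested.

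Of 6 vascular miRNAs 3 had an iron to control ratio above 1 in dorsal and 5 in ventral, and of 3 erythroid ones 1 in dorsal and 2 in ventral. The oligodendrocyte pair of miR-219b-3p and miR-338 summed to 8812 CPM in iron dorsal, 13906 in iron ventral, 11503 in control dorsal and 10264 in control ventral. It was highest in iron ventral and lowest in iron dorsal, as miR-181b was. By the distance between log2 CPM profiles over the 4 libraries, each centred on its own mean, the 3 miRNAs nearest to miR-181b among those of at least 100 CPM were miR-139-3p (0.12), miR-338 (0.13) and miR-219b-3p (0.17). Nearest to miR-181a were miR-10b (0.03), miR-145-3p (0.17) and miR-181d-5p (0.18). Nearest to miR-181d-5p were miR-127 (0.08), miR-374b-5p (0.13) and miR-10b (0.15). Nearest to miR-181c were miR-130a (0.08), miR-497 (0.09) and miR-1468 (0.09), and its cluster partner miR-181d-5p came 101st at 0.55. With 4 points per profile these likenesses are a description. The part of oligodendrocyte RNA in the level of miR-181b was not tested.

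Other miRNAs known from other species to act on redox genes, among them miR-27a, miR-27b-3p, miR-21, miR-34a and miR-153, had no common direction. Of 10 measured, 0 reached 1.5-fold in either iron comparison, where 9.56% of all measured miRNAs did in dorsal and 5.58% in ventral. Of the 10, 4 were above 1 in dorsal and 6 in ventral, and the median log2 ratio was -0.04 in dorsal and 0.04 in ventral. Their summed level, in contrast, was 47765 CPM in iron dorsal against 36217 CPM in control dorsal, a ratio of 1.32, and 44640 CPM in iron ventral against 38136 CPM in control ventral, a ratio of 1.17. Among large families, the summed let-7 family with miR-98 had a ratio of iron to control of 1.08 in dorsal (1.08 to 1.09) and 1.08 in ventral (1.08 to 1.08), and the miR-30 family had 1.38 in dorsal (1.38 to 1.39) and 1.07 in ventral (1.07 to 1.08). The summed miR-181 family had 0.974 in dorsal (0.969 to 0.978) and 1.44 in ventral (1.43 to 1.45). Whether these families differ in their response was not tested.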

How the data were processed

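The submitters' processing notes name cutadapt 1.2.2 and the builds Sscrofa10.2 and susScr3, without their roles. The aligner, counter and miRNA release are not stated in the sources used here. The authors deposited reads per annotated miRNA and per conserved sequence, and their many fractions make them estimated counts, per the file headers and the values. They were rounded for tests. The authors' RPM values, per the file headers, served as an alternative scaling. Columns of per-sample values not used number 12.

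Annotated rows that listed identical precursors and matched in reads to 0.1% were merged, leaving 321 of 326. Libraries were scaled by TMM in edgeR 4.0.16 and a miRNA was measured at 10 CPM in at least 1 library. Ratios carry exact conditional binomial (Clopper-Pearson) 95% intervals, and compare libraries, not conditions. For rows of the conserved table these intervals were computed as if rows shared no reads. The conserved table was scaled by TMM on its family sums, and its rows were assigned to arms by name and sequence after they were seen. Over both regions or treatments edgeR's quasi-likelihood test was fitted on all measured miRNAs with Benjamini-Hochberg adjustment, with DESeq2 1.42.0 and limma 3.58.1 as alternatives; intervals and test were checked on simulated data. All rows beginning miR-181a to miR-181d were named, and for likeness the 3 nearest profiles among miRNAs at 100 CPM or more. The members and lists were chosen with earlier results of these data known.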

Additional observations from a re-analysis of the deposited data

Results flagged for a closer look

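Several differences ran in opposite directions in the groups compared, with both counting intervals excluding 1. The interval alone excluded 1 for 75.3% to 77.7% of all measured miRNAs, depending on the comparison. How many of all measured miRNAs ran in opposite directions by this rule was not counted. A test of these contrasts was not possible with 1 library per combination, so the differences were not tested. For iron against control, the log2 ratio in dorsal and then in ventral hippocampus was -0.18 and 0.50 for miR-181b, -0.061 and 0.46 for miR-181d-5p, and -0.038 and 0.53 for the summed family. In the conserved table the summed family gave 0.036 and 0.48, above 0 in both regions. For dorsal against ventral, the log2 ratio in iron and then in control piglets was -0.28 and 0.27 for miR-181a, -0.55 and 0.13 for miR-181b, -0.11 and 0.41 for miR-181d-5p, -0.34 and 0.26 for miR-181c, and -0.30 and 0.26 for the summed family. The 2 sets rest on the same 4 libraries and are not independent of each other.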

How the results depend on the processing

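Both regions come from the same groups of piglets. The treatment term therefore acts as a block for these groups in the test of region. In the test of iron the region term pairs libraries by region, but no term accounts for the piglets shared by the regions of a treatment. With the region or treatment term left out, edgeR again made 0 calls in either test. Scaling moved the summed family's log2 ratios by more than counting error in most settings. In the dorsal iron comparison the ratio was -0.16 with total reads, -0.028 with DESeq2 size factors, -0.15 with the authors' RPM, -0.022 with rows not merged and 0.036 in the conserved table, where its sign turned. In the ventral iron comparison it was 0.46, 0.55 and 0.50 with total reads, DESeq2 size factors and rows not merged, and 0.48 in the conserved table. For dorsal against ventral in iron piglets it was -0.40 with total reads, -0.37 with RPM, -0.32 with rows not merged and -0.26 in the conserved table. In control piglets it was 0.23, 0.28, 0.30 and 0.20 with total reads, size factors, RPM and rows not merged, and 0.18 in the conserved table. Total reads moved the median of all measured miRNAs by -0.13 in the dorsal iron comparison and by -0.10 for dorsal against ventral in iron piglets. The dorsal iron ratio of miR-181a turned to -0.12 with total reads and -0.10 with RPM; that of miR-181c in ventral turned from just under to just over 0 with size factors. The region difference of miR-181a in edgeR was 0.0052 with size factors, with the opposite sign. Without a minimum CPM, 1 member, miR-181d-3p, was over 2-fold different between control dorsal and control ventral, at 5.28 (1.09 to 50.3), on 9 against 2 reads. For iron edgeR called 2 miRNAs with total reads, 2 with size factors, 3 with no minimum and 2 with rows not merged, and DESeq2 called 1; for region edgeR called 3, 3, 4 and 3. Members of the family were not among these, with adjusted p-values of 0.693 to 0.999 over the 9 settings; the cause of the moves was not tested.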
